A study of Homo sapiens with 18 samples.

Results

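The 26 genes described here encode enzymes of cholesterol synthesis, the proteins that set the activity of that pathway, and proteins that carry sterol into and within the cell. They were taken by name from the deposited gene count table, by a rule with no threshold on a measured value, and all 26 were found among its 36684 genes. By role, 8 are early enzymes (ACAT2, HMGCS1, MVK, PMVK, MVD, IDI1, FDPS and GGPS1), 12 are late enzymes (FDFT1, SQLE, LSS, CYP51A1, TM7SF2, LBR, MSMO1, NSDHL, HSD17B7, EBP, SC5D and DHCR7), 3 are regulators (SREBF2, SCAP and INSIG1) and 3 are transport proteins (STARD4, NPC1 and NPC1L1). RNA was sequenced from Hep3B, a human hepatoma cell line, in 6 groups of 3 libraries. Con is the control. Model received free fatty acids (FFA) to load the cells with lipid. FUCO-0.5, FUCO-1 and FUCO-2 received FFA and fucoxanthin (FUCO), a carotenoid of brown algae, at 0.5, 1 and 2 μM. RES received FFA and Resmetirom, an agonist of thyroid hormone receptor β. Con thus lacks FFA as well as a drug, and each drug group has Model as its reference. The FFA concentration, the exposure times and the RES dose of these libraries are not given in the sources used here. All groups come from a single tumour line, so the 3 libraries of a group are cultures of that line.

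Cells make cholesterol from acetyl-CoA. The early enzymes build the isoprenoid chain through mevalonate up to farnesyl pyrophosphate, from which branches leave for dolichol, ubiquinone and protein prenylation, and the late enzymes join the chains into squalene, close the ring and trim lanosterol to cholesterol. SREBP2, the product of SREBF2, switches on most of these genes. SCAP escorts it out of the endoplasmic reticulum when membrane sterol is low, and INSIG1 holds SCAP back when sterol is high, which makes the liver pathway a standard case of feedback by an end product.

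Promoter stretches are shown for 8 members because their transcripts behaved differently across the groups, from some of the steepest differences (HMGCS1, MVK and MVD) to none past the test in the 5 main comparisons (LBR and SCAP). They come from RefSeq on GRCh38.p14, whose table had a promoter of 300 bases (250 before to 50 after the start) for 23 of the 26 members. Entries for ACAT2, FDFT1 and SQLE were missing. The start used is that of a single entry per gene, and the stretches below for MVK and SCAP lie wholly inside the annotated gene. Each line gives the longest run of the 250 upstream bases that is free of exons of coding genes, 5′ to 3′ on the gene's strand, and capitals mark a CCAAT box (CCAAT, or ATTGG where it lies on the other strand), a sterol regulatory element (TCACNCCAC), its core (TCACCCCA) or an E-box (CACGTG). The positions are chr5:43313513-43313662 on the minus strand for HMGCS1, chr12:109573581-109573792 on the plus strand for MVK, chr16:88663162-88663341 on the minus strand for MVD, chrX:152830813-152830966 on the plus strand for NSDHL, chr1:225428926-225429071 on the minus strand for LBR, chr22:41832855-41833104 on the plus strand for SREBF2, chr7:155297628-155297775 on the plus strand for INSIG1 and chr3:47475956-47476191 on the minus strand for SCAP.
HMGCS1: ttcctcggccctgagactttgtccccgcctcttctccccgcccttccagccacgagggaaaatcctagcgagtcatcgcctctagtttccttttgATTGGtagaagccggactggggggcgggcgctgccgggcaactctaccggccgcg
MVK: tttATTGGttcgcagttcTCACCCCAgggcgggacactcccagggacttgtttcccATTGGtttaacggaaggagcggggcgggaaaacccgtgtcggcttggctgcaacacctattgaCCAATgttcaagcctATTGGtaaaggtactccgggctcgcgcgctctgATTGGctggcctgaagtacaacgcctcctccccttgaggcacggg
MVD: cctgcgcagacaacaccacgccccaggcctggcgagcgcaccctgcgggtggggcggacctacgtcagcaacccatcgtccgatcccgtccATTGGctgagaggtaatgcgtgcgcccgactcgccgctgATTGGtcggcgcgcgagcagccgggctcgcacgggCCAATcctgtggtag
NSDHL: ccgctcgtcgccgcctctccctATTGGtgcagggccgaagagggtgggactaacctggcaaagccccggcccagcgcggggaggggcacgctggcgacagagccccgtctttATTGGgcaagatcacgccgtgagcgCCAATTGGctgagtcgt
LBR: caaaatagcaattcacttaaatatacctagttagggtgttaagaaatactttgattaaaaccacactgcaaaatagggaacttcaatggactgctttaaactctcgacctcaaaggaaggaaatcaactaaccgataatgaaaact
SREBF2: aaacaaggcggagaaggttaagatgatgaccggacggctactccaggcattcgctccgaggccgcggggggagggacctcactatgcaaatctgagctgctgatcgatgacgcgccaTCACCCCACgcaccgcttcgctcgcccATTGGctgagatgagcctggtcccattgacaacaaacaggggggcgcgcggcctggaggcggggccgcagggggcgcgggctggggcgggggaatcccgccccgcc
INSIG1: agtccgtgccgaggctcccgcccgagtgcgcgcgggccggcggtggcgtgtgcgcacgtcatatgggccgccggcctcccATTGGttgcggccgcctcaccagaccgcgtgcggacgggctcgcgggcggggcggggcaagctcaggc
SCAP: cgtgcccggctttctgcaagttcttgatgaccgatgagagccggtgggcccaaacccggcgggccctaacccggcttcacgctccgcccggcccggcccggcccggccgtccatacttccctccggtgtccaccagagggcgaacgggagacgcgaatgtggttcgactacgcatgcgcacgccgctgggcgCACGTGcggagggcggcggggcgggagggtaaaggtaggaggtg
All 4 motifs were searched on both strands of the whole 300 bases, and the element and its core overlap in their letters. The CCAAT box was in 16 of the 23 promoters (69.6%), against 35.7% of all 27305 promoters in the table. The sterol regulatory element was in 1 of them, SREBF2, at 133 bases before the start, against 1.15% of all promoters. Its core was in SREBF2 and in MVK, 195 bases before the start, against 1.47%. The E-box was in 4 (SCAP, INSIG1, SC5D and LSS), against 7.43%. A match is a description of the letters, and the absence of one says only that those letters are not in this window.

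The libraries held 16916688 to 23083498 counts, and 14557 genes passed the filter on low counts, all 26 members among them. The 7 hepatocyte markers were detected in every group, but their summed level differed between groups, from 55100 to 59400 CPM (counts scaled to library size) in Con and 45800 to 46600 in Model to 30400 to 35600 in FUCO-2 and 15800 to 16500 in RES. ALB made up most of that sum in Con and Model, with means of 41000 and 33900 CPM. In RES its mean was 7530 CPM, less than the other markers of the list together. AFP went with ALB (6360, 3350 and 127 in Con, Model and RES). Other markers of the list did not, among them APOA2, with means of 5630, 4770 and 5490 CPM in Con, Model and RES, and FGB, with 141, 112 and 150. Blood cell markers summed to at most 19.5 CPM, the lowest sums being 2.87 to 3.64 in Con, and nearly all of it was LYZ (means of 3.16 in Con, 15.9 in Model and 6.08 in RES), while HBB was at 0 in every library. Endothelial markers summed to at most 1.93 CPM, with CDH5 at 0. Fibroblast and stellate cell markers summed to 18.4 to 21.4 CPM in Con, 13.2 to 16.6 in Model and 3.92 to 4.74 in RES. Of these, PDGFRB had means of 18.3 CPM in Con, 12.3 in Model and 1.16 in RES, and COL1A1 of 1.06, 1.37 and 2.13. Some libraries stood apart from their group. In Con this was replicate 1. Its counts differed from those of the other Con libraries by 15.5 and 13.2 times the sampling noise (chi-square per degree of freedom), against 2.3 between the other pair. It was the lowest Con library for 19 of the 26 members, with a median log2 difference of -0.181 from the mean of the others, where that over all genes was -0.00212. In RES, replicate 3 was on the high side for these genes (median log2 difference 0.203, over all genes -0.00153), and without it 21 members were called against Model, as with it. The counts of FUCO-1 replicate 3 differed from its group by 10 and 11 times the sampling noise, against 4.52 between the other pair. Its median log2 difference for these genes was 0.117 (over all genes -0.00659), yet it was the lowest FUCO-1 library for 10 of the 26. The counts of FUCO-0.5 replicate 2 differed from its group by 10.4 and 17.9 times the sampling noise. The 1 member called in FUCO-0.5 against Model was lost without any 1 of the 6 libraries of those groups, this library among them. In bulk RNA, fewer cells making a transcript and less transcript per cell cannot be told apart.

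Levels between genes were compared per length of exon. In Con the most abundant member was HMGCS1, at 324 CPM per kilobase of exon, followed by FDPS at 180, TM7SF2 at 156, SQLE at 152 and ACAT2 at 150. At the other end stood NPC1 at 11.3, CYP51A1 at 7.22 and GGPS1 at 7.06. By this measure the order did not follow the pathway. MVK and PMVK, which act directly after one another on mevalonate, stood at 25.5 and 30.2, well under HMGCS1 and, at 113, MVD. The length is that of all annotated exons of a gene together, 9018 bases for MVK and 1002 for PMVK. Unscaled, MVK stood at 230 CPM in Con and PMVK at 30.3, so their order depends on the length used. Of the exon bases of CYP51A1 and GGPS1, 74.1% and 41% are shared with other genes, so their low places are uncertain.

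**Figure D1:**
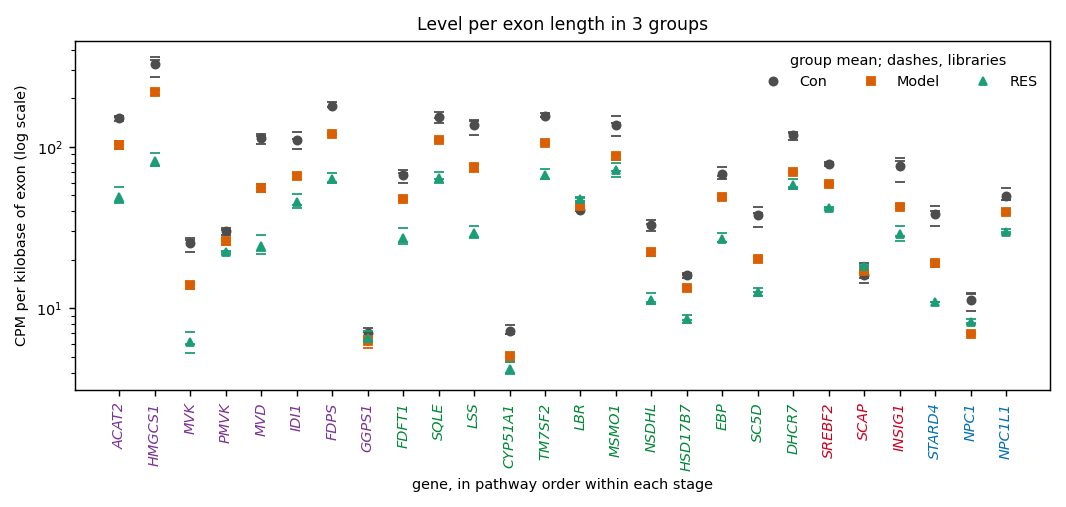
Level of each of the 26 genes in CPM per kilobase of exon (log scale) in Con, Model and RES, with symbols for the group mean and dashes for the 3 libraries. HMGCS1 leads at 324 in Con and GGPS1 is lowest at 7.06, and for most genes the Model symbol lies below Con and the RES symbol below Model.

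Most genes of the pathway were lower in FFA-loaded cells than in Con, and in loaded cells most were lower with FUCO at 2 μM or with RES than without a drug. Con had the highest mean of the 6 groups for 24 of the 26 members and RES the lowest for 20. The same was not counted over all genes, so these 2 counts stand without a background. Against Con, Model had 22 members lower by edgeR's quasi-likelihood test (Benjamini-Hochberg adjusted p under 0.05 over all genes tested), where 9.12% of all genes tested were lower. Against Model, 17 members were lower in FUCO-2, where 9.71% of all genes were lower, and 20 were lower and 1 higher in RES, where 25.1% of all genes were lower and 24.4% higher. FUCO-0.5 and FUCO-1 had 1 member lower each, against 1.16% and 2.32% of all genes. Their fitted log2 fold changes against Model were below 0 for 23 and 21 of the 26 members, and for 7250 and 7341 of all 14557 genes. The medians over the members were -0.139 and -0.111, where those of all genes were 0.000588 and -0.00167. The drug comparisons share the Model libraries, so their calls are not independent of each other. Most changes were of moderate size. An absolute log2 fold change over 1 was reached by 2 of the 22 members in Model (MVD and STARD4), where 0.721% of all genes passed that rule downward, and by 5 in RES, where 6.92% did, while the largest fold change in a FUCO group was that of HMGCS1 in FUCO-2 (-0.70).

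**Figure D2:**
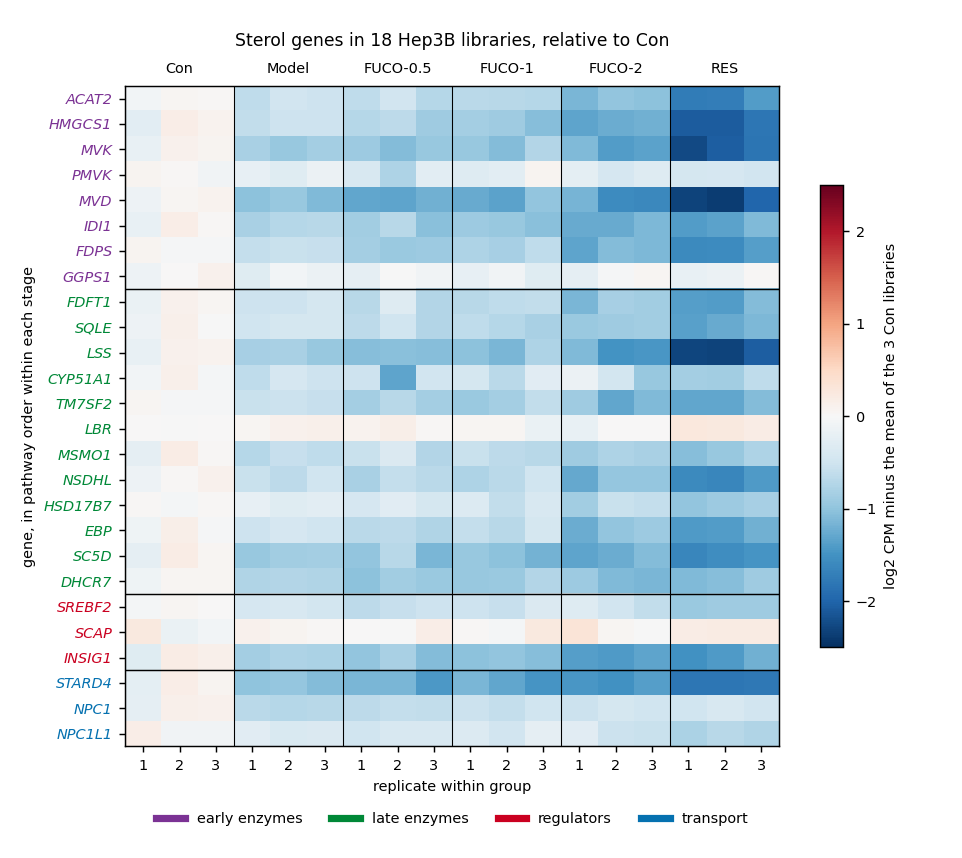
log2 CPM of the 26 genes in each of the 18 libraries minus the mean of the 3 Con libraries, with genes in pathway order within each stage and blue for values below Con. The blue deepens from Model to FUCO-2 and RES in most rows, while the rows of GGPS1, LBR and SCAP stay pale and that of PMVK is pale in most groups, with -0.77 in 1 FUCO-0.5 library.

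Among the early enzymes, HMGCS1, the synthase that makes HMG-CoA, stood at 1780, 2400 and 2270 CPM in Con and at 1390, 1490 and 1490 in Model. Its libraries were at 1300, 1360 and 1160 CPM in FUCO-0.5, at 1190, 1150 and 1020 in FUCO-1, at 858, 901 and 926 in FUCO-2 and at 505, 504 and 607 in RES. No Model library reached the lowest Con library, and all 3 FUCO groups and RES lay wholly below Model. The fitted log2 fold change was -0.56 (SE 0.0969, edgeR's quasi-likelihood test, adjusted p = 0.000208) in Model against Con, -0.70 (SE 0.0972, adjusted p = 1.67e-05) in FUCO-2 against Model and -1.43 (SE 0.0987, adjusted p = 1.38e-11) in RES against Model. It was the only member past the test in FUCO-1 against Model, at -0.38 (adjusted p = 0.0259), a call lost in 5 of the 6 fits that left out 1 Model or FUCO-1 library (largest adjusted p = 0.144, without FUCO-1 replicate 3). RES left it at 25.0% of the Con level. In GENCODE, 37.7% of its exon bases are shared with an unnamed gene on the other strand, so its counts are uncertain to that extent.

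ACAT2, the cytosolic thiolase that joins acetyl-CoA units, stood at 380, 408 and 402 CPM in Con, 257, 284 and 275 in Model and 118, 120 and 150 in RES. The FUCO libraries were at 257, 286 and 242 at 0.5 μM, at 247, 246 and 243 at 1 μM and at 179, 200 and 196 at 2 μM. The 0.5 μM libraries overlapped Model, and those at 2 μM did not. The log2 fold change was -0.54 in Model, -0.51 in FUCO-2 against Model and -1.07 in RES against Model (edgeR adjusted p = 5.04e-05, 0.00012 and 1.33e-10), and 22.2% of its exon bases are shared with other genes.

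MVK, mevalonate kinase, stood at 203, 247 and 240 CPM in Con and at 131, 118 and 127 in Model. It was at 123, 108 and 118 in FUCO-0.5, at 119, 108 and 138 in FUCO-1, at 107, 86.7 and 90.9 in FUCO-2 and at 48.1, 54.6 and 64.5 in RES. The 2 lower doses overlapped Model, and FUCO-2 and RES lay below it. The log2 fold change was -0.88 in Model (SE 0.104, edgeR adjusted p = 2.07e-06), -0.40 in FUCO-2 against Model (SE 0.105, adjusted p = 0.00819) and -1.17 in RES against Model (SE 0.107, adjusted p = 2.28e-09). Without FUCO-2 replicate 2 the FUCO-2 call was lost (adjusted p = 0.0531). PMVK, which adds the next phosphate, showed smaller differences, with means of 30.3 ± 1.66 CPM (SD, n = 3) in Con, 26.1 ± 1.42 in Model, 22 ± 3.85, 27.1 ± 4 and 24 ± 1.48 in rising FUCO dose and 22.2 ± 0.47 in RES. It passed the test in none of the 5 main comparisons, and its 95% interval for RES against Model ran from -0.46 to -0.0052 on the log2 scale (adjusted p = 0.0839, or 0.00805 with only those 2 groups fitted). Against Con it was lower in FUCO-0.5 (-0.46, adjusted p = 0.00368), FUCO-2 (-0.33, adjusted p = 0.0275) and RES (-0.45, adjusted p = 0.0012). Of these calls, that in FUCO-2 was lost in 4 of the 18 fits without 1 library (adjusted p = 0.11 without FUCO-2 replicate 2, 0.0543 without FUCO-2 replicate 3, 0.0733 without Con replicate 1 and 0.0798 without Con replicate 2).

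MVD, the decarboxylase that ends the mevalonate steps, had, with STARD4, the largest difference between Model and Con. Its libraries stood at 489, 550 and 566 CPM in Con, 262, 277 and 247 in Model and 107, 103 and 134 in RES. At 0.5, 1 and 2 μM FUCO they were at 216, 214 and 233, at 224, 212 and 268, and at 238, 178 and 175. Model held 49.0% of the Con level (log2 fold change -1.03, SE 0.11, edgeR adjusted p = 4.08e-07), and RES 43.8% of Model (-1.19, SE 0.112, adjusted p = 3.71e-09). FUCO-2 lay below Model in every library, at -0.41 (adjusted p = 0.00982), and this call was lost without FUCO-2 replicate 2 (adjusted p = 0.0612) and without replicate 3 (0.0546).

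FDPS makes farnesyl pyrophosphate, the point from which the isoprenoid branches leave. It stood at 705, 653 and 655 CPM in Con, 441, 454 and 447 in Model, 372, 353 and 358 in FUCO-0.5, 392, 378 and 431 in FUCO-1, 269, 318 and 308 in FUCO-2 and 222, 224 and 257 in RES. All FUCO and RES libraries lay below the lowest Model library. FDPS was the only member past the test in FUCO-0.5 against Model, at -0.31 (edgeR adjusted p = 0.0309), and leaving out any 1 of those 6 libraries took the call away (largest adjusted p = 0.153, without Model replicate 2). FUCO-2 and RES gave -0.58 (SE 0.0753, adjusted p = 6.66e-06) and -0.93 (SE 0.0757, adjusted p = 2.8e-10). IDI1, the isomerase before it, fell from 476 ± 56.3 CPM (SD, n = 3) in Con to 285 ± 11.7 in Model, to 204 ± 10.9 in FUCO-2 and to 195 ± 20.6 in RES. GGPS1, which extends the chain for protein prenylation and so leaves the sterol route, ran from 23.4 to 26.9 CPM over the 6 group means and was called in no comparison. Its 95% interval in Model against Con was -0.38 to 0.030, and 41% of its exon bases are shared with other genes.

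Among the late enzymes, FDFT1, squalene synthase, stood at 302, 364 and 351 CPM in Con, 237, 235 and 249 in Model and 130, 128 and 159 in RES. The FUCO libraries were at 208, 270 and 204, at 208, 216 and 219, and at 152, 191 and 184 in rising dose. Only FUCO-0.5 replicate 2 reached the Model range. The log2 fold change was -0.49 in Model, -0.45 in FUCO-2 and -0.79 in RES (edgeR adjusted p = 0.00136, 0.00298 and 8.8e-07). SQLE, which oxidises squalene, followed with 654 ± 55.7 CPM (SD, n = 3) in Con, 475 ± 13.2 in Model, 351 ± 7.02 in FUCO-2 and 277 ± 22.2 in RES, each difference past the test.

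LSS, the cyclase that closes the sterol ring, was at 21.3% of Con in RES, the lowest share among the members together with MVD (21.4%). Its libraries stood at 863, 1060 and 1050 CPM in Con, at 555, 564 and 509 in Model and at 200, 197 and 235 in RES. In FUCO-0.5 they were at 469, 478 and 473, in FUCO-1 at 487, 448 and 581 and in FUCO-2 at 456, 349 and 359. FUCO-1 overlapped Model, and the other drug groups lay below it. LSS fell in all 3 comparisons, with log2 fold changes of -0.87 in Model (SE 0.103, edgeR adjusted p = 2.14e-06), -0.48 in FUCO-2 (SE 0.103, adjusted p = 0.00159) and -1.36 in RES (SE 0.105, adjusted p = 1.03e-10).

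The sterol C14 reductase step can be run by either of 2 members, TM7SF2 and LBR, and their ratio differed between the groups. TM7SF2 had means of 530 ± 18.8 CPM (SD, n = 3) in Con, 360 ± 5.47 in Model, 305 ± 18.4, 306 ± 35.8 and 250 ± 34.9 in rising FUCO dose and 227 ± 20 in RES. LBR, which also anchors chromatin at the nuclear lamina, was at 231 ± 1.86, 247 ± 6.71, 245 ± 9.76, 229 ± 18.5, 224 ± 16.8 and 272 ± 8.32 in the same order. Per exon length the ratio of TM7SF2 to LBR was 3.99, 3.82 and 3.74 in the Con libraries and 2.51, 2.44 and 2.36 in Model. It was 2.34, 1.55 and 1.77 in FUCO-2 and 1.3, 1.31 and 1.6 in RES. Every Con ratio lay above those of the other groups, and RES overlapped FUCO-2. LBR was higher in RES than in Con (log2 fold change 0.23, edgeR adjusted p = 0.00642), and not past the test in RES against Model (0.14, adjusted p = 0.106).

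CYP51A1, the demethylase before that step, was listed at only 30.1 ± 2.25 CPM in Con, 20.9 ± 1.45 in Model and 17.5 ± 1.65 in RES (SD, n = 3), and GENCODE has 74.1% of its exon bases shared with other genes, so its counts are the most uncertain of the set. Its lower level in Model (-0.53, edgeR adjusted p = 0.0301) was lost in 5 of the 6 fits that left out 1 Con or Model library (largest adjusted p = 0.113, without Con replicate 2). MSMO1, the C4 methyl oxidase, fell from 391 ± 56.4 CPM to 249 ± 10.4 in Model and to 205 ± 20.1 in RES. At 2 μM FUCO it was not called, where 219 ± 8.69 CPM gave a log2 fold change of -0.18 with a 95% interval of -0.38 to 0.016 (adjusted p = 0.189). Its RES call (-0.28, adjusted p = 0.0169) was lost without RES replicate 1 (0.104), RES replicate 2 (0.0515) or Model replicate 2 (0.065).

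NSDHL, which removes the C4 carboxyl group, stood at 60.2, 66.7 and 70.5 CPM in Con, 44.9, 41.9 and 46.5 in Model and 21.8, 21.1 and 24.7 in RES. With FUCO it was at 37.3, 43.5 and 41.4, at 38.3, 41.4 and 46.3, and at 27.2, 33.6 and 33.7 in rising dose. FUCO-2 and RES lay below every Model library, while the lower doses overlapped it. The log2 fold change was -0.57 in Model, -0.49 in FUCO-2 and -0.98 in RES (edgeR adjusted p = 0.000138, 0.000765 and 1.15e-08). HSD17B7, the ketone reductase of the same complex, differed less between Model and Con, with 76.7 ± 2.72 CPM (SD, n = 3) in Con and 64.1 ± 2.36 in Model. That call (-0.26, adjusted p = 0.0357) was lost without any 1 of the 6 libraries (largest adjusted p = 0.126, without Model replicate 2), while FUCO-2 at 48.3 ± 5.48 and RES at 40.9 ± 2.42 were past the test against Model in every such fit.

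EBP, the isomerase of the sterol double bond, stood at 111, 132 and 117 CPM in Con, 83.1, 89.6 and 85.4 in Model and 45.2, 45.4 and 52.0 in RES. With FUCO it was at 75.1, 76.1 and 70.7, at 79.3, 74.1 and 88.5, and at 50.7, 60.8 and 63.5 in rising dose. Levels at 0.5 and 2 μM lay below Model, and those at 1 μM overlapped it. EBP had log2 fold changes of -0.48 in Model, -0.56 in FUCO-2 and -0.86 in RES (edgeR adjusted p = 0.00035, 8.73e-05 and 2.22e-08), and 36.4% of its exon bases are shared with another gene.

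SC5D, the desaturase near the end of the route, stood at 321, 425 and 390 CPM in Con, 194, 206 and 210 in Model and 121, 128 and 135 in RES. With FUCO it was at 191, 231 and 170, at 194, 185 and 165, and at 152, 159 and 177 in rising dose. Only the 2 μM and RES libraries lay wholly below Model. The log2 fold change was -0.90 in Model (SE 0.102, edgeR adjusted p = 9.9e-07), -0.32 in FUCO-2 (SE 0.102, adjusted p = 0.0268) and -0.67 in RES (SE 0.102, adjusted p = 7.95e-06). The FUCO-2 call was lost in 4 of the fits without 1 library (largest adjusted p = 0.093, without Model replicate 3). DHCR7, which reduces the last intermediate of its branch to cholesterol, fell from 813 ± 49.6 CPM (SD, n = 3) in Con to 483 ± 4.72 in Model. With RES it was at 401 ± 31, a log2 fold change of -0.27 (adjusted p = 0.00751), and at 2 μM FUCO at 392 ± 37.7 (-0.30, adjusted p = 0.00895). Among the late enzymes past the test in both comparisons, DHCR7 alone had a mean in RES that was not below that in FUCO-2.

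**Figure D3:**
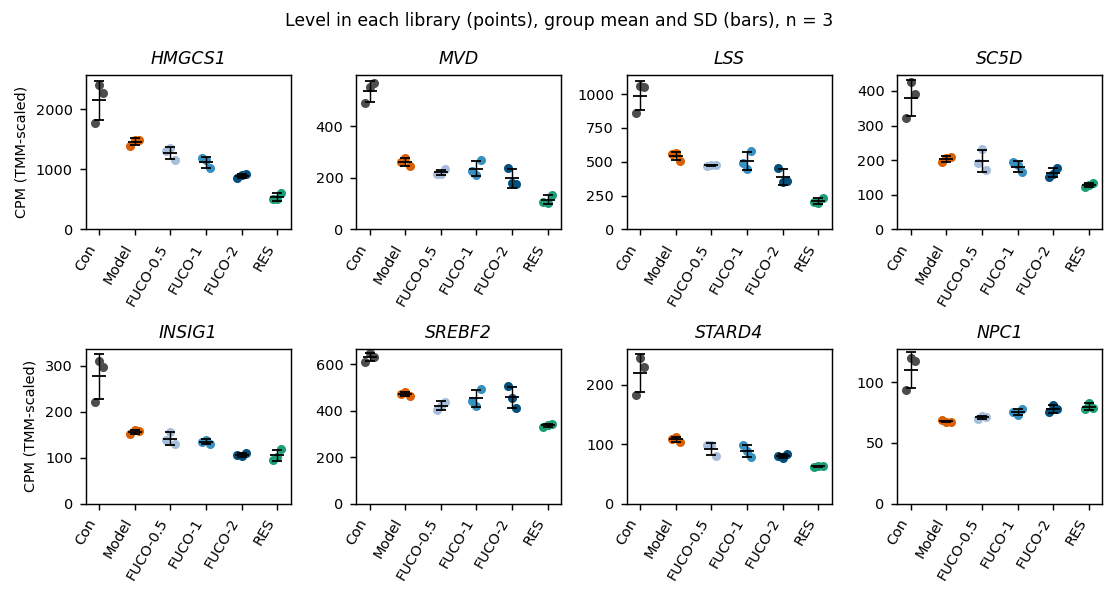
CPM in each library (points) with the group mean and SD (bars, n = 3) for 2 early enzymes, 2 late enzymes, 2 regulators and 2 transport genes. HMGCS1, MVD, LSS, SC5D and STARD4 are lowest in RES, SREBF2 in FUCO-2 (505, 454 and 413) overlaps Model, and NPC1 is lowest in Model.

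The regulators divided. INSIG1, the sterol-sensing anchor and itself a target of SREBP2, stood at 222, 311 and 298 CPM in Con, 151, 161 and 157 in Model, 106, 103 and 110 in FUCO-2 and 95.2, 102 and 118 in RES. At 0.5 and 1 μM FUCO it was at 138, 156 and 129 and at 135, 139 and 130. FUCO-2 and RES overlapped each other and lay below Model. INSIG1 fell in each, with log2 fold changes of -0.82 in Model (SE 0.099, edgeR adjusted p = 2.49e-06), -0.56 in FUCO-2 (SE 0.1, adjusted p = 0.000328) and -0.57 in RES (SE 0.0998, adjusted p = 4.24e-05). SREBF2 stood at 611, 649 and 632 CPM in Con, 473, 480 and 461 in Model and 329, 339 and 341 in RES. Those groups did not overlap, with log2 fold changes of -0.42 in Model (adjusted p = 0.000253) and -0.49 in RES (adjusted p = 7e-06). In FUCO-2 it was at 505, 454 and 413, on both sides of Model, and the log2 fold change of -0.044 had a 95% interval of -0.20 to 0.11. SCAP, the escort, had group means between 102 and 116 CPM and was called in no comparison, with Con replicate 1 at 120 and the other Con libraries at 90.1 and 96.6. Without Con replicate 1 it was higher than Con in RES (0.31, adjusted p = 0.00594) and in FUCO-2 (0.26, adjusted p = 0.0437), and with only the 2 groups fitted it was higher in RES than in Model (0.12, adjusted p = 0.0274). Its interval in Model against Con was -0.14 to 0.26.

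The transport genes also differed from each other. STARD4, a cytosolic sterol carrier, stood at 183, 244 and 229 CPM in Con, 108, 112 and 103 in Model and 62.2, 62.5 and 62.8 in RES. With FUCO it was at 98.2, 97.8 and 80.0, at 98, 88.1 and 78.4, and at 79.7, 76.3 and 84.1 in rising dose. Every FUCO and RES library lay below the lowest Model library. Model held 49.2% of the Con level (log2 fold change -1.02, SE 0.0954, edgeR adjusted p = 6.3e-08), FUCO-2 74.4% of Model (-0.43, adjusted p = 0.00274) and RES 58.1% of Model (-0.78, adjusted p = 3.54e-07).

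NPC1, which moves cholesterol out of lysosomes, had higher values with the drugs than in Model. It stood at 93.4, 120 and 118 CPM in Con and fell to 68.7, 67.3 and 67.5 in Model (log2 fold change -0.70, SE 0.0779, edgeR adjusted p = 7.09e-07). It was at 69.6, 72.5 and 71.2 in FUCO-0.5, 75.6, 73.1 and 78.0 in FUCO-1, 75.2, 81.5 and 78.2 in FUCO-2 and 77.8, 83.1 and 78.9 in RES. Each of those groups lay above Model and below the lowest Con library. NPC1 was higher in RES than in Model (0.24, adjusted p = 0.0141), a call lost without RES replicate 2 (0.0604), and at 2 μM FUCO it missed the test (0.21, adjusted p = 0.064, or 0.0149 without Con replicate 1). NPC1L1, the sterol importer of the cell surface, was at 263 ± 27.8 CPM (SD, n = 3) in Con, 208 ± 8.09 in Model, 192 ± 21.1 in FUCO-2 and 156 ± 5.41 in RES. It fell in Model (-0.34, adjusted p = 0.00565) and in RES (-0.41, adjusted p = 0.000277).

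**Figure D4:**
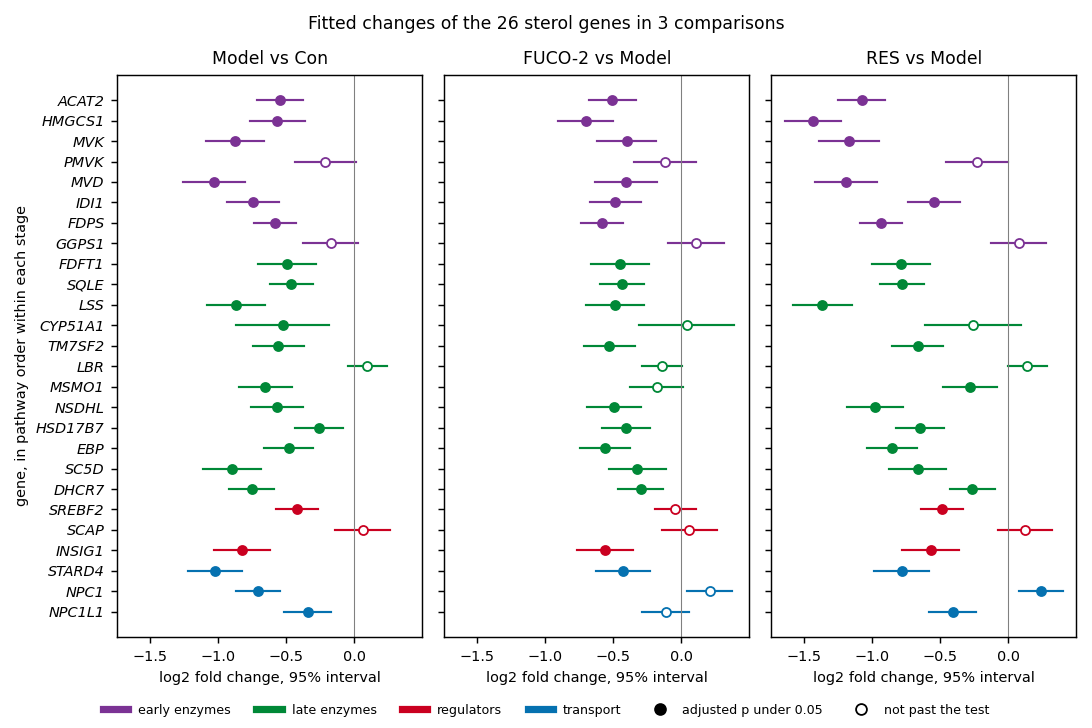
Fitted log2 fold change and 95% interval of each gene in Model against Con, FUCO-2 against Model and RES against Model, with filled symbols for an adjusted p under 0.05. Filled symbols lie left of 0 for 22, 17 and 20 genes, and the only one to the right is NPC1 in RES at 0.24.

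The comparison of Model with Con asks what FFA loading did to the pathway. Lower calls were spread over every stage, in 6 of 8 early enzymes, 11 of 12 late enzymes, 2 of 3 regulators and 3 of 3 transport genes. PMVK, GGPS1, LBR and SCAP were the members not called. Of the 19 called members with a promoter in the table, 16 held a CCAAT box (the others were CYP51A1, IDI1 and NPC1), and of the 4 not called, 0 held one, a pattern seen after the calls were known. In FUCO-2 against Model the split was less complete, with a CCAAT box in 13 of 14 called and in 3 of 9 not called. In RES against Model it was in 16 of 17 lower, 0 of 1 higher and 0 of 5 not called. All 250 upstream bases of IDI1, which held none, and of TM7SF2, which held one, are exons of coding genes. Without Con replicate 1, 21 members were lower in Model than in Con.

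The comparison of the FUCO groups with Model asks whether the drug altered the loaded cells, and most of the members called were called at 2 μM. FUCO-2 had 6 early enzymes, 9 late enzymes, 1 regulator and 1 transport gene below Model, from HMGCS1 at 61.5% of the Model level to DHCR7 at 81.3%. Without FUCO-2 replicate 1, whose counts differed from the other FUCO-2 libraries by 19.3 and 18.6 times the sampling noise, 16 members were called. FUCO-1 differed from FUCO-0.5 in 0 members by edgeR's quasi-likelihood test and in 0 by DESeq2, with 1 member at an unadjusted p under 0.05, where 0.00687% of all genes were lower. FUCO-2 against FUCO-1 had 8 members lower (ACAT2, HMGCS1, MVK, FDPS, LSS, NSDHL, EBP and INSIG1), where 2.23% of all genes were lower, with EBP at -0.47 (adjusted p = 0.00233) and FDPS at -0.42 (adjusted p = 0.0011). EBP, FDPS and ACAT2 kept the call in every fit without 1 library. Of the 18 such fits the call was lost in 12 for HMGCS1 (largest adjusted p = 0.164, without FUCO-1 replicate 1), in 11 for INSIG1 (0.15, without FUCO-2 replicate 2), in 7 for MVK (0.235, without FUCO-1 replicate 3), in 4 for LSS (0.193, without FUCO-1 replicate 3) and in 2 for NSDHL (0.0797, without FUCO-1 replicate 3). The lowest count over these fits was 4. The mean at 2 μM was below that at 1 μM in 22 members, the others being GGPS1, NPC1, SCAP and SREBF2. Fitted log2 fold changes of FUCO-2 against FUCO-1 were below 0 for 22 of the 26 members and for 6843 of all 14557 genes. The summed level of the hepatocyte markers was also lowest at 2 μM among the FUCO groups, and its part in these differences was not tested.

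With RES, used by the study as a reference drug, 6 early enzymes, 10 late enzymes, 2 regulators and 2 transport genes were lower than in Model. The 5 with a log2 fold change under -1 were HMGCS1, LSS, MVD, MVK and ACAT2, of which 4 are early enzymes. RES changed 49.4% of all genes tested in either direction, and the summed level of the hepatocyte markers was at its lowest there. The count of members thus stands beside a broad shift of the transcriptome, whose part in it was not tested. The mean in RES was below that in FUCO-2 for 22 members, the others being DHCR7, LBR, NPC1 and SCAP. How many of all genes had a lower mean in RES than in FUCO-2 was not counted. RES and FUCO-2 were not tested against each other, and the doses of 2 drugs are not matched.

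Against Con, 23, 21 and 23 members were lower in FUCO-0.5, FUCO-1 and FUCO-2, where 11.4%, 10.1% and 11.9% of all genes were lower. In RES 23 were lower and 1, LBR, was higher, where 28.5% of all genes were lower and 28.8% higher. All 5 groups with FFA had 21 members below Con by the test, the others being CYP51A1, GGPS1, LBR, PMVK and SCAP. These 5 comparisons share the Con libraries. The share of all genes lower in all 5 was not counted, and it cannot exceed the 9.12% lower in Model against Con. The levels of 3 early enzymes and 1 late enzyme in RES were at or under 25.0% of Con: HMGCS1 at 25.0%, MVK at 24.2%, MVD at 21.4% and LSS at 21.3%.

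The stages were set side by side by their medians, with no test of a difference between them. In Model against Con the median log2 fold change was -0.57 for the early enzymes, -0.54 for the late enzymes, -0.42 for the regulators and -0.70 for the transport genes, where that of all genes tested was 0.0011. In FUCO-2 against Model these medians were -0.45, -0.42, -0.044 and -0.12, with 0.0096 for all genes. In RES against Model they were -1, -0.67, -0.49 and -0.41, with 0.0023 for all genes. At the level of libraries, the median of the early enzymes relative to Con was -1.16, -1.16 and -1.13 in FUCO-2 and that of the late enzymes -0.91, -0.93 and -0.93. In RES the early enzymes were at -1.67, -1.65 and -1.39 and the late enzymes at -1.32, -1.28 and -1.08. The early median was the lower one in each of those 6 libraries. In Model it was lower too, at -0.622, -0.543 and -0.555 against -0.555, -0.527 and -0.512. Those gaps are smaller than the spread of a stage median between replicates (residual SD 0.0746 to 0.0895). In Con the early medians were -0.125, 0.0415 and 0.0469 and the late ones -0.113, 0.103 and 0.0382. Replicates 1 and 2 of Con thus had the same order without FFA, and all libraries share the same genes and Con reference. The regulators and the transport genes are 3 each, so their medians are single genes.

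**Figure D5:**
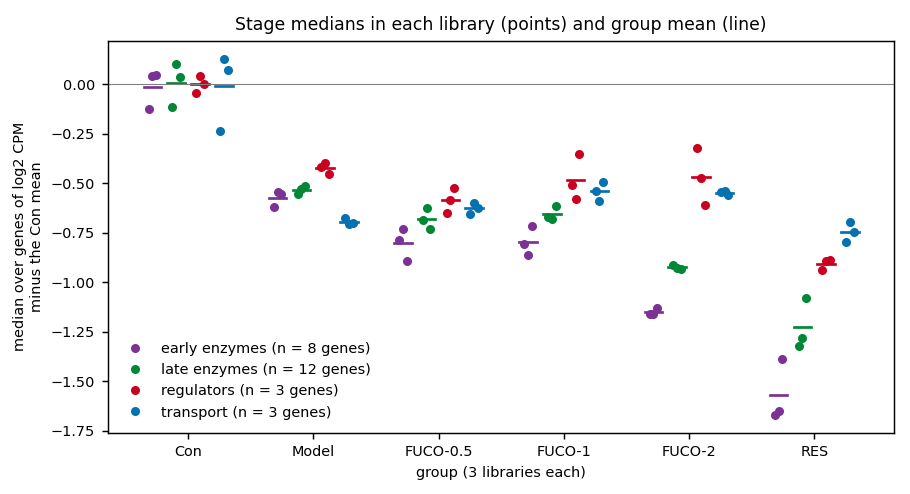
Median over the genes of each stage of log2 CPM minus the Con mean, for each library (points) and as group mean (lines). Early enzymes end lowest, at -1.67 to -1.39 in RES, while regulators at 2 μM FUCO spread from -0.61 to -0.32 and transport genes stay between -0.80 and -0.49 in the groups with FFA.

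Genes next to the pathway were counted from companion lists. Of 10 genes of fatty acid synthesis and desaturation that SREBP proteins also drive, 8 were lower in Model than in Con, 6 lower in FUCO-2 than in Model and 9 lower in RES than in Model, where 9.12%, 9.71% and 25.1% of all genes tested were lower. Their medians were -0.53, -0.43 and -0.70 on the log2 scale. ACSS2, which makes acetyl-CoA from acetate, fell in Model by a log2 fold change of -2.32 (edgeR adjusted p = 3.15e-09), and its Con libraries spread widely, with a mean of 342 ± 134 CPM (SD, n = 3) against 68.4 ± 2.69 in Model. ACLY, which makes acetyl-CoA from citrate, and LPIN1, a phosphatidate phosphatase, had log2 fold changes of -1.12 and -1.22 there. FASN, the fatty acid synthase, was at 2550 ± 179 CPM in Model and fell to 1080 ± 24.6 in RES (-1.24, adjusted p = 1.15e-08).

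Of 9 genes of sterol uptake, lysosomal release and esterification, 5 were lower in Model, 3 lower in FUCO-2 and 5 lower and 1 higher in RES, against the same shares of all genes and 24.4% higher in RES. TMEM97, a partner of NPC1, had 417 ± 21.8 CPM in Model (SD, n = 3) and fell to 166 ± 26.2 in RES (log2 fold change -1.33, edgeR adjusted p = 3.49e-10), and MYLIP, a ubiquitin ligase for lipoprotein receptors, fell there as well (-1.21). Of 5 genes of SREBP processing and sterol sensing, 0 passed the test in Model or in FUCO-2 by edgeR or by DESeq2, with 0 and 1 at an unadjusted p under 0.05, and 4 were higher in RES, where 24.4% of all genes were, with a median of 0.35. Of 8 genes of the isoprenoid branches, 1 was higher in Model (8.43% of all genes were), 0 passed the test in FUCO-2 by edgeR or DESeq2 (1 at an unadjusted p under 0.05) and 2 were higher in RES, a count near the background share of 24.4%, and their medians were 0.0050, -0.021 and 0.063.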

How the data were processed

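RNA-seq libraries of Hep3B cells in 6 groups of 3 were grouped by their titles. The authors trimmed the reads with fastp, aligned them with STAR to GRCh38.p14, counted them per gene with featureCounts (GENCODE named as annotation) and deposited raw counts, with no normalization. Strand and multimapping settings are not given in the sources used here, so genes that share exon bases (14 of the 26, 5 of them over 20%) are uncertain. All 18 columns were used, with totals of 16916688 to 23083498 counts. The members, lists and tests were chosen with earlier results of these data known.

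Counts were analysed in R 4.3.3 with edgeR 4.0.16 (filterByExpr with minimum count 10 and minimum total 15, TMM, quasi-likelihood test over all 18 libraries with 1 term per group), and Benjamini-Hochberg adjustment ran over all 14557 genes tested. Tested on simulated data for Model against Con (14347 genes), the fit recovered 200 of 200 changed genes with 7 false calls. That count is not split by size of fold change, and recovery of fold changes as small as most reported here was not tested. CPM were TMM-scaled, and exon lengths and gene overlaps came from GENCODE. A member received its value in every library if it was called in 1 of 5 comparisons (Model against Con, and each drug group against Model) and was among the 12 with the largest fold change. The others are given by group means. Companion genes were named only when called with an absolute log2 fold change over 1, at most 3 per comparison. Alternatives were DESeq2 1.42.0 (the tool named by the authors), RLE normalization, no filter, at least 10 counts in every library, only the 2 groups compared, a replicate block, the authors' added fold threshold, and leaving out each of 18 libraries. The sources describe the replicates of a group as biological. p-values measure the spread between these cultures of 1 line.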

Additional observations from a re-analysis of the deposited data

How the results depend on the processing

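Over 6864 pairs of a member's result and an alternative, 6743 kept their call, 81 lost one, 40 gained one and 0 reversed. With an absolute log2 fold change over 1 as well, 2 members passed in Model against Con, where 0.721% of all genes passed downward. In RES against Model 5 passed, where 6.92% did. Against Model 0 passed in each of FUCO-0.5, FUCO-1 and FUCO-2, and 0 did in FUCO-2 against FUCO-1. Against Con the members past it numbered 3, 4 and 14 in FUCO-0.5, FUCO-1 and FUCO-2. For these comparisons the share of all genes past the rule is not given here, so their counts stand without a background. FUCO-1 against Model, with 1 member called, gave 3 without a filter on low counts, 5 with only those 2 groups fitted and 2 with DESeq2. The calls over all genes rose too, from 467 to 697, 976 and 653 in the same order. FUCO-2 against FUCO-1 gave 5 in place of 8 with only those 2 groups, where calls over all genes went from 917 to 533. Leaving out 1 library at a time gave 20 to 22 members in Model against Con. Against Model it gave 0 to 1 in FUCO-0.5, 0 to 3 in FUCO-1, 14 to 18 in FUCO-2 and 19 to 22 in RES. Against Con it gave 23 in FUCO-0.5, 21 to 22 in FUCO-1, 21 to 23 in FUCO-2 and 24 to 25 in RES. FUCO-1 against FUCO-0.5 stayed at 0 in each of these fits and FUCO-2 against FUCO-1 ran from 4 to 9. Calls over all genes moved in these fits too, from 1597 to 3047 in Model against Con and from 366 to 1228 in FUCO-2 against FUCO-1. Against Model they ran from 110 to 290 in FUCO-0.5, 220 to 661 in FUCO-1, 1972 to 3366 in FUCO-2 and 6130 to 7539 in RES. The stage medians that moved by more than the spread between replicates were those of the transport genes in Model against Con (-0.812 to -0.641) and in FUCO-2 against Model (-0.21 to -0.0659) and that of the early enzymes in RES against Model (-1.1 to -0.952). The single calls at 0.5 and 1 μM FUCO against Model were lost in some of these fits, and the cause was not tested. With the replicate number as a block, counts were 22, 1, 1, 17 and 21 in the 5 main comparisons, 23, 22, 23 and 24 against Con, and 0 and 8 between doses. Over all genes the block gave 2617, 235, 510, 3040 and 7275 calls in the 5 main comparisons, against 2555, 211, 467, 2990 and 7194 without it. Of 45 pairs of libraries with the same number, 6 had deviations correlated above 0.1 (range -0.16 to 0.178). Pairs with different numbers were not compared, so whether the numbers pair the samples was not settled.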
